A study of Mus musculus with 2 samples.

Results

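The transcripts described here are those of 10 mouse genes that set or read the cellular response to oxygen: the HIF subunit genes Hif1a, Epas1 and Arnt, the HIF hydroxylase genes Egln1, Egln2, Egln3 and Hif1an, the ubiquitin ligase gene Vhl, and the classical HIF targets Vegfa and Ddit4. The members were chosen by name, as every probe set whose only gene symbol in the platform annotation is 1 of these 10. Each of the 10 genes, of 18193 named alone by at least 1 probe set, had such a probe set, and they had 24 of the 45037 that are not array controls. They were read in G1E cells, a line of mouse erythroblast precursors without GATA-1, which in this study carried ER-GATA-1(V205G). This fusion joins a GATA-1 mutant that binds the cofactor FOG-1 poorly to the ligand-binding part of an estrogen receptor, so that estradiol activates it. There was 1 Affymetrix array of cells before treatment and 1 of cells given 1 µM estradiol for 24 h, and both groups carry the fusion and lack GATA-1. With 1 array a group there is no replicate check of any difference, no p-value and no SD between cultures. No untreated array at 24 h was analysed here and the labels name no oxygen level, so the activated mutant, estradiol itself and time in culture cannot be told apart.

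HIF is a heterodimer of an oxygen-regulated alpha subunit and the stable beta subunit ARNT. In oxygen, the EGLN enzymes hydroxylate prolines of the alpha subunit, the VHL ligase then marks it for the proteasome, and a further hydroxylase, HIF1AN, also called FIH, blocks its contact with the coactivators p300 and CBP. When oxygen falls these steps slow, the alpha subunit accumulates, and HIF activates genes of glycolysis, blood vessel growth and its own feedback loop, Egln3 among them. Because this control acts on protein, transcript levels of Hif1a or Vhl do not report HIF activity, and HIF protein was not measured here. In the erythroid lineage the pathway is best known for its control of erythropoietin and of iron supply. GATA-1 is the factor that drives red cell maturation, and the G1E line matures when GATA-1 is restored.

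HIF binds a short core, ACGTG or GCGTG. GATA factors bind several related forms, of which only AGATAA and TGATAA were searched here as the GATA element. These HIF and GATA letters were looked for, on both strands, in the 250 bases before the annotated starts of the members. The windows came from the RefSeq promoter table for GRCm38.p6, which held 11 of them for 9 of the 10 genes. ACGTG also lies within CACGTG, where it matches both strands. The window of Hif1a is shown whole because Hif1a was the member with the largest ratios upward, given below. It lies at chr12:73907617-73907866 on the plus strand, with the HIF core matches in capitals, and it holds no GATA match.
Hif1a: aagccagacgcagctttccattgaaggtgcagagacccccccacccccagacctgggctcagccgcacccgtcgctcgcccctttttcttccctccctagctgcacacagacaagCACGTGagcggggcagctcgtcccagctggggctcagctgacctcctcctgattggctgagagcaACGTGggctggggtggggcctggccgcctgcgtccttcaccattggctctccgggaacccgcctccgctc
Shorter stretches are shown for Egln1, Egln3 and Ddit4, of the feedback and target genes, with 1 HIF core of each in capitals. The core begins 68 bases before the start in Egln1 (chr8:124949308-124949332). It begins 229 bases before the start in Egln3 (chr12:54204089-54204113) and 187 bases before it in Ddit4 (chr10:59951943-59951967). All of these genes are on the minus strand. Egln1 holds a further core 126 bases and Ddit4 one 115 bases before the start.
Egln1: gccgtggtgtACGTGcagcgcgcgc
Egln3: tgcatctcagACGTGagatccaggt
Ddit4: aacgttgcgaACGTGcgcccggtgc
AGATAA or TGATAA occurred in 1 member, 182 bases before the first of 2 annotated starts of Vegfa (chr17:46032544-46032569, minus strand).
Vegfa: aggggtgcacAGATAAttttgaggcc
A HIF core stood in the windows of 7 members and in neither that of Vhl nor that of Hif1an. Vegfa held HIF cores only before its second start, 218 and 211 bases before it. Of all 32851 windows in the table, 38.6% hold a HIF core and 16.6% a GATA element, so matches of this kind are common. Those shares are per window, whereas the 7 is a count of genes, and Egln2 and Vegfa have 2 windows each. The windows of the members were also richer in G and C than the median window (52.4%), at 66.4% for Hif1a and 86.0% for Egln1, except those of Egln3 (50.8%), of Hif1an (52.0%) and of the second start of Egln2 (48.0%). A match is a description of the letters and not evidence of binding.

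**Figure D1:**
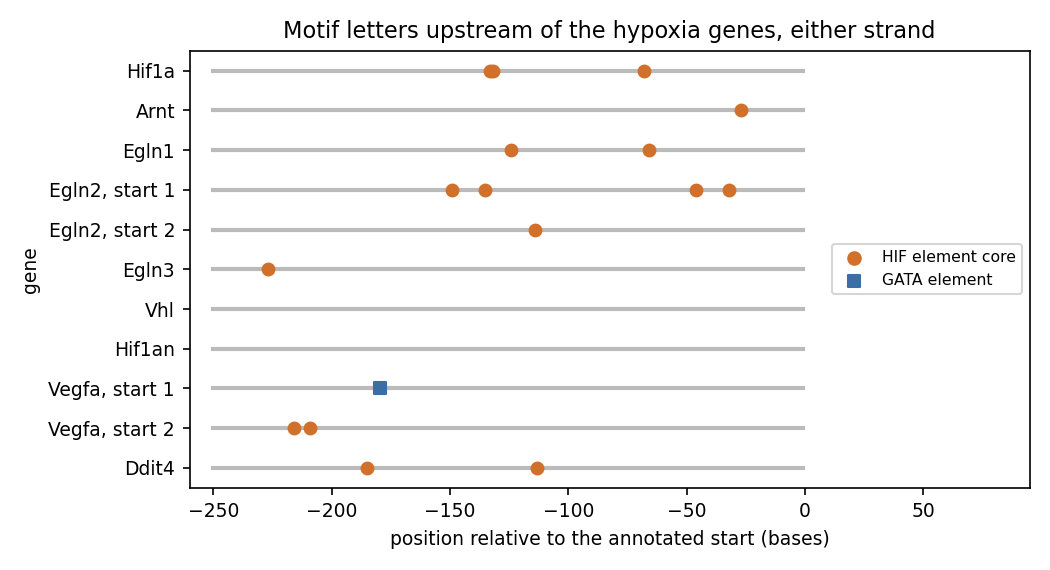
Position of each match, in bases before the annotated start, for the 11 windows of 9 hypoxia genes. Orange circles are HIF cores and the blue square is a GATA element (AGATAA or TGATAA only), on either strand. The windows of Vhl and Hif1an hold no such match, and Vegfa alone holds those GATA letters.

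Values below are linear signal intensities per probe set, in arbitrary units, followed by the log2 ratio of estradiol over untreated. Signals of different probe sets are not comparable with each other, since each has its own affinity. A floor was set at the median signal over both arrays, 95.2, and a probe set counts as measured when it reached the floor on both arrays. The size of a ratio is read against how far probe sets of a gene disagree with each other, an SD of 0.25 (4586 genes, 12514 probe sets). A ratio beyond 2 SD is called beyond its limit here, a limit of 0.60, 0.50 and 0.40 on the log2 scale for the lowest, middle and highest tertile of signal. This limit covers probe noise and transcript forms, not differences between cultures.

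Of the alpha subunit genes, Hif1a was present and somewhat higher after estradiol, and Epas1 was below the floor. Hif1a, which encodes the broadly expressed HIF-1 alpha, read 2681 untreated and 3539 with estradiol on its brightest probe set, 1.32-fold higher (log2 ratio 0.40). Another probe set read 1134 and 1735, 1.53-fold higher (0.61), and a further one read 912 and 1207, 1.32-fold higher (0.40). All 3 measured probe sets were therefore higher with estradiol, and their log2 ratios averaged 0.47 ± 0.12 (SD over 3 probe sets of 1 pair of arrays, not over cultures). The remaining probe set read 14.4 and 45.8, below the floor on both arrays. The first 2 lay beyond the limit for their signal, the brightest only just (ratio and limit both round to 0.40), and the dimmest of the 3 did not. Among the 2020 genes with at least 3 measured probe sets, 26.7% had all of them higher, 4.8% had all of them at least as high as the lowest of Hif1a and 2.33% had all of them lower by that much or more. That comparison was chosen after the values were seen. Epas1 encodes HIF-2 alpha, the alpha subunit of endothelial cells and of erythropoietin-producing cells. It read 53.4 and 12.7 on 1 probe set and 6.80 and 19.5 on the other, so its signals went in opposite directions beneath the floor and no ratio was formed.

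**Figure D2:**
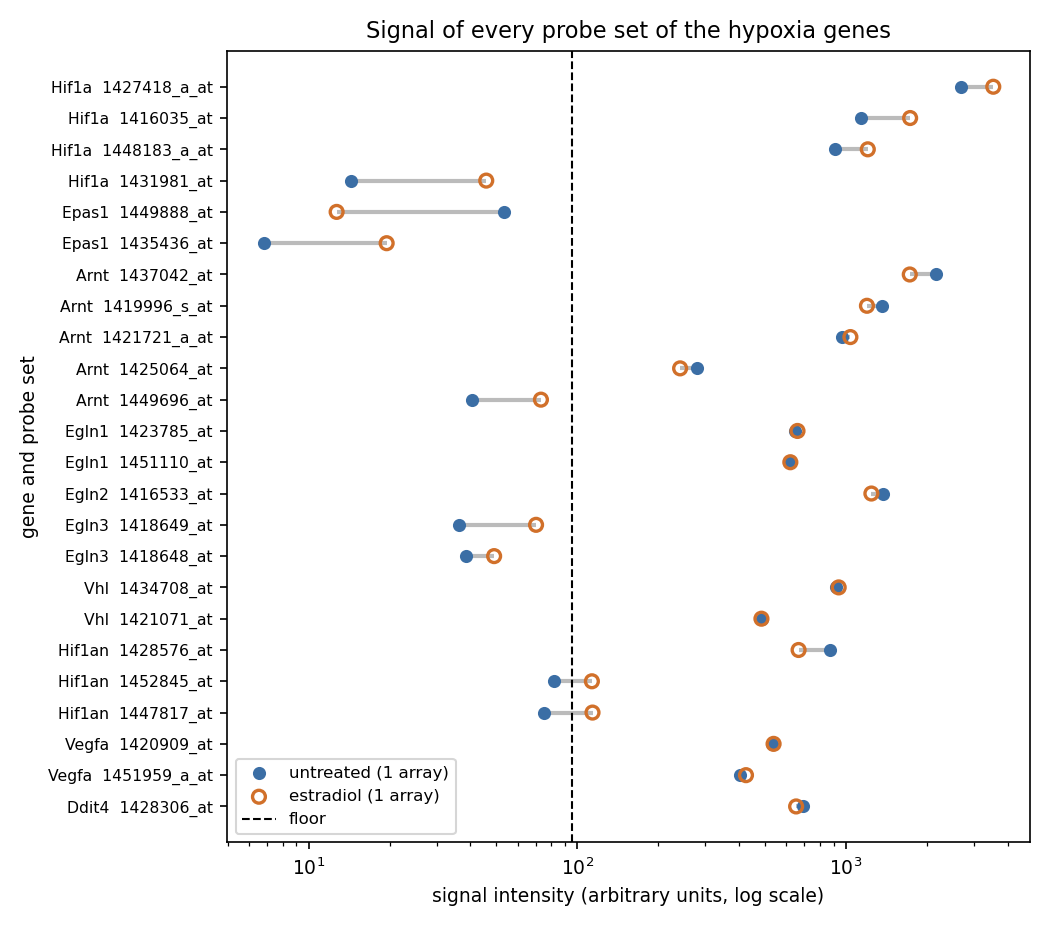
Signal of all 24 probe sets of the hypoxia genes on a log axis, with filled blue points for the untreated array, open orange points for the estradiol array and the floor of 95.2 dashed. The 3 bright probe sets of Hif1a sit to the right with estradiol, those of Egln1, Vhl and Vegfa nearly coincide, and both probe sets of Epas1 and of Egln3 lie left of the floor.

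The shared beta subunit gene, Arnt, differed little and its probe sets were not of 1 sign. Its brightest probe set read 2158 and 1729 (log2 ratio -0.32), and the others read 1358 and 1198 (-0.18), 971 and 1039 (0.10), and 279 and 241 (-0.21). So 3 of 4 measured probe sets were lower with estradiol, none beyond its limit, and they averaged -0.15 ± 0.18 (SD over 4 probe sets). The remaining probe set read 40.5 and 73.2, below the floor.

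Among the hydroxylase genes, those of the prolyl hydroxylases gave ratios near 0 where they could be measured. Egln1 encodes PHD2, the main enzyme that hydroxylates HIF-1 alpha in oxygen. Its probe sets read 647 and 660.4 (log2 ratio 0.03) and 622 and 621 (0.00), so they gave nearly the same signal on both arrays. Egln2, which encodes PHD1, had 1 probe set at 1369 and 1244 (-0.14), within the limit. Egln3, the PHD3 gene and a HIF target itself, read 36.3 and 70.2 and, on the other probe set, 38.6 and 49.0. Both probe sets were brighter with estradiol yet below the floor, so no ratio was formed.

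Hif1an, the gene of the asparagine hydroxylase FIH, showed the lowest ratio of the members on its brightest probe set, but its other probe sets pointed the other way. The brightest read 873 and 667, 0.764 of the untreated signal (log2 ratio -0.39), within its limit of 0.50. The remaining pair were below the floor untreated and just above it with estradiol, at 81.6 and 113 and at 75.0 and 114, which gives bounds of at least 1.19-fold and at least 1.20-fold higher. The direction for this gene therefore rests on which probe set is read. Vhl, the gene of the substrate-recognition subunit of the ligase, read 921 and 940.2 (0.03) and 486 and 485 (0.00), level on both probe sets.

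The classical target genes among the members also gave ratios near 0. Vegfa, the vascular growth factor gene, read 532 and 538 (log2 ratio 0.02) and 403 and 425 (0.08). Ddit4 encodes REDD1, an inhibitor of the mTORC1 growth kinase that is induced by hypoxia, by stress and by glucocorticoids, and it read 694 and 653 on its only probe set (-0.09). Egln1, Vhl and Vegfa have ratios so near 0 that their sign turns negative when the arrays are scaled to a common median, which shifts the median of all genes by -0.11.

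Over all 24 probe sets, 16 were measured, 2 had a bound and 6 were below the floor. Of the 16 measured, 0 passed 2-fold upward and 0 downward, where 2.03% of all 21054 measured probe sets were higher and 1.01% lower by that much. At 1.5-fold 1 of the 16 was higher, that of Hif1a, against 7.59% of all, and 0 were lower, against 4.6%. Beyond the limit for their signal lay 2 on the higher side, both of Hif1a, against 8.82% of all, and 0 on the lower side, against 6.28%. These shares are close to the background. By gene, using the brightest probe set, 8 of 10 were measured, 4 above 0 and 4 below, with a median log2 ratio of -0.04 and a range from -0.39 (Hif1an) to 0.40 (Hif1a). None of the 8 passed 2-fold in either direction, where 2.04% of 10240 measured genes were higher and 1.1% lower, and the median of all measured genes was 0.00. Hif1a had a larger absolute ratio than 76.3% of measured genes and Hif1an than 75.3%, while Vegfa exceeded 4.47%, Egln1 8.55% and Vhl 8.70%. The hypoxia genes thus spanned the middle of the distribution.

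**Figure D3:**
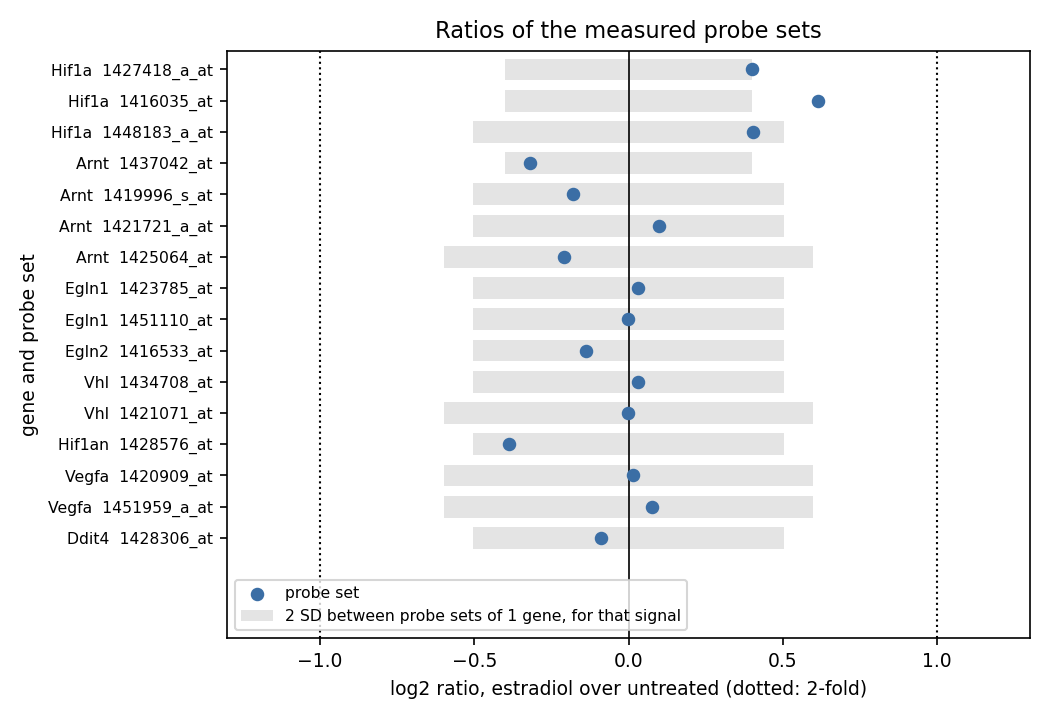
Log2 ratio of estradiol over untreated for the 16 measured probe sets (points), with the range of 2 SD between probe sets of a gene in grey and 2-fold dotted. Only 2 points, both of Hif1a, lie outside their grey range and none reaches 2-fold.

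Larger differences stood among the genes whose products join or compete with HIF, a list of 14 of which 11 were measured. By 2-fold or more 1 was higher and 0 were lower, against 2.04% and 1.1% of all measured genes. Above 0 lay 5 and below it 6, where 50.1% of all measured genes lay above 0, and the median was -0.03. Hif3a encodes a further alpha subunit, some forms of which oppose HIF-1 and HIF-2. It read 2075 untreated and 1097 with estradiol on its brightest probe set (log2 ratio -0.92). The other 4 measured probe sets of Hif3a read 779 and 449.9 (-0.79), 698 and 314 (-1.15), 567 and 207 (-1.46) and 339 and 186 (-0.86). All 5 were lower with estradiol and beyond their limits, and 2 of them passed 2-fold. The alpha subunit genes thus differed in opposite directions, with the measured Hif1a probe sets between 0.40 and 0.61 and those of Hif3a between -1.46 and -0.79.

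CITED2 and CITED4 bind the same domain of p300 and CBP that the HIF alpha subunits use, and their genes also went opposite ways. Cited2 read 4409 and 2535 (log2 ratio -0.80) and, on a second probe set, 2033 and 1055 (-0.95), lower on both. Cited4 read 1102 and 2442 on its only measured probe set of 2, 2.22-fold higher (1.15). The coactivator gene Ep300 itself read 1697 and 1546 (-0.13), and Crebbp ranged from 0.03 to 0.30 over 3 measured probe sets.

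**Figure D4:**
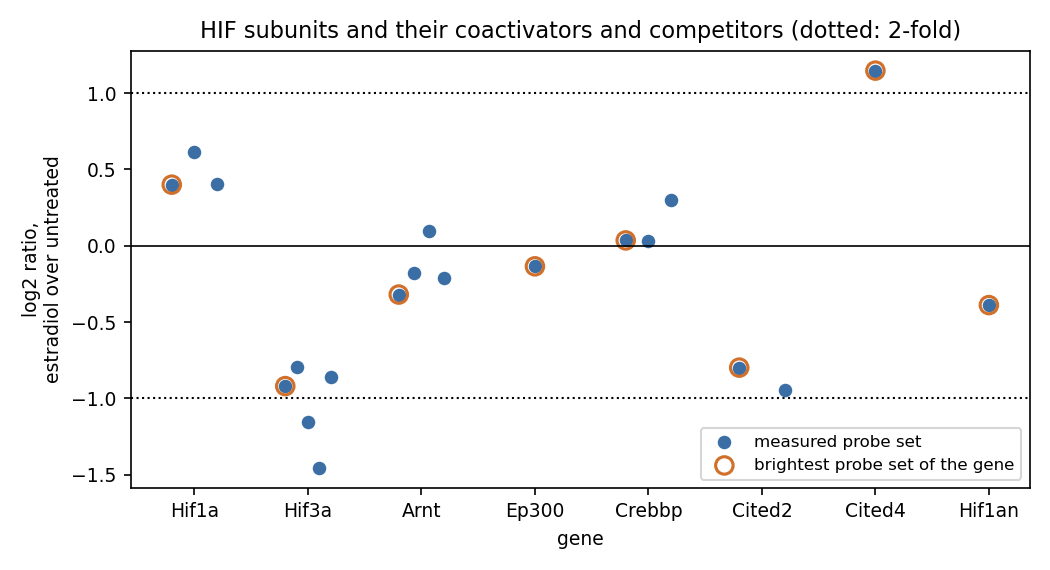
Log2 ratio of every measured probe set, as points, for HIF subunit genes, the coactivator genes Ep300 and Crebbp, the CITED genes and Hif1an, with the brightest probe set of each gene ringed and 2-fold dotted. The 5 probe sets of Hif3a and both of Cited2 lie below 0, and the 3 of Hif1a and the 1 of Cited4 lie above.

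Of 16 listed genes of the machinery that degrades HIF alpha 12 were measured. At 2-fold 0 were higher and 0 lower, against 2.04% and 1.1% of all measured genes. The median was 0.08, and the brightest probe sets ranged from -0.14 to 0.37. Cul2, the cullin scaffold of the VHL ligase, read 2119 and 1917 (-0.14). Eloc, which encodes the elongin C adaptor, read 7132 and 8759 (0.30) on its brightest probe set, within its limit. Its other 3 were beyond theirs, at 1253 and 1986 (0.66), 1135 and 1913 (0.75), and 766 and 1352 (0.82), so all 4 were higher with estradiol. The deubiquitinase genes Usp20 (0.37) and Usp33 (0.27), whose products bind VHL, were within their limits.

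The next list held other enzymes that use oxygen and 2-oxoglutarate, the chemistry of the EGLN proteins, and further oxygen-sensing enzymes such as Ado. Its genes lay on both sides of 0. Of 16 listed genes 12 were measured, 8 above 0 and 4 below, where 50.1% of all measured genes lay above 0. The median was 0.28. By 2-fold or more 0 were higher and 0 lower, against 2.04% and 1.1% of all measured genes. P4ha1, a collagen prolyl hydroxylase subunit gene, read 150 and 283 (log2 ratio 0.92) and 130 and 186 (0.52). The histone demethylase genes Kdm4c, at 361 and 612 (0.76), and Kdm3a, at 1416 and 2280 (0.69), were beyond their limits of 0.60 and 0.40. Ogfod1, a ribosomal prolyl hydroxylase gene, was lower on both probe sets, at 651 and 338 (-0.95) and at 288 and 165 (-0.81).

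Genes that HIF is known to activate differed one by one. In the list for glucose use and metabolism, 17 of 27 genes were measured, with a median of 0.05. Past 2-fold lay 1 upward and 1 downward, against 2.04% and 1.1% of all measured genes. The glucose transporter genes went apart: Slc2a1 (GLUT1) had log2 ratios of 0.71, 0.78 and 0.75 on its 3 probe sets, while Slc2a3 (GLUT3) read 938 and 384, 2.44-fold lower (-1.29), with -0.97 on another. Hk2, the inducible hexokinase gene, was 2.34-fold higher (1.23), whereas Pgk1 (-0.05) and Ldha (0.06), standard hypoxia-induced enzymes, were level. Gys1, muscle-type glycogen synthase, read 275 and 75.4, the latter below the floor, at least 2.89-fold lower.

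In the list of further HIF targets, 16 of 31 were measured, of which 14 lay above 0 and 2 below, with a median of 0.31, where 50.1% of all measured genes lay above 0. At 2-fold 2 were higher and 0 lower, against 2.04% and 1.1% of all measured genes. These were Bnip3, a mitophagy receptor gene, at 1014 and 2583 (2.55-fold, log2 ratio 1.35), and Insig2, a brake on sterol synthesis, at 624 and 1331 (2.13-fold, 1.09). The 3 probe sets of Insig2 ranged from 0.68 to 1.09. Ero1a, an oxidase of protein folding, was higher on 3 of 3 probe sets (0.58 to 0.80), and Zfp395 was the lowest at -0.82. Kdm3a and P4ha1 stand in this list as well as the one above. Ankrd37 (0.09) and Adm (0.30), which like Egln3 answer readily to HIF, were within their limits, and Car9, Ndrg1, Angptl4 and Vldlr were below the floor on both arrays. On the same arrays 6 of 9 measured erythroid markers lay above 0 and 3 below. By 2-fold or more 2 were higher (Alas2 and Sptb) and 0 lower, against 2.04% and 1.1% of all measured genes. Sptb was at 1.47 on its brightest probe set and at 0.26 on its other. The summed signals of the markers, weighted to the brightest probe sets, were 36886 untreated and 44506 with estradiol. The part of these markers in the differences of the HIF targets was not tested.

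**Figure D5:**
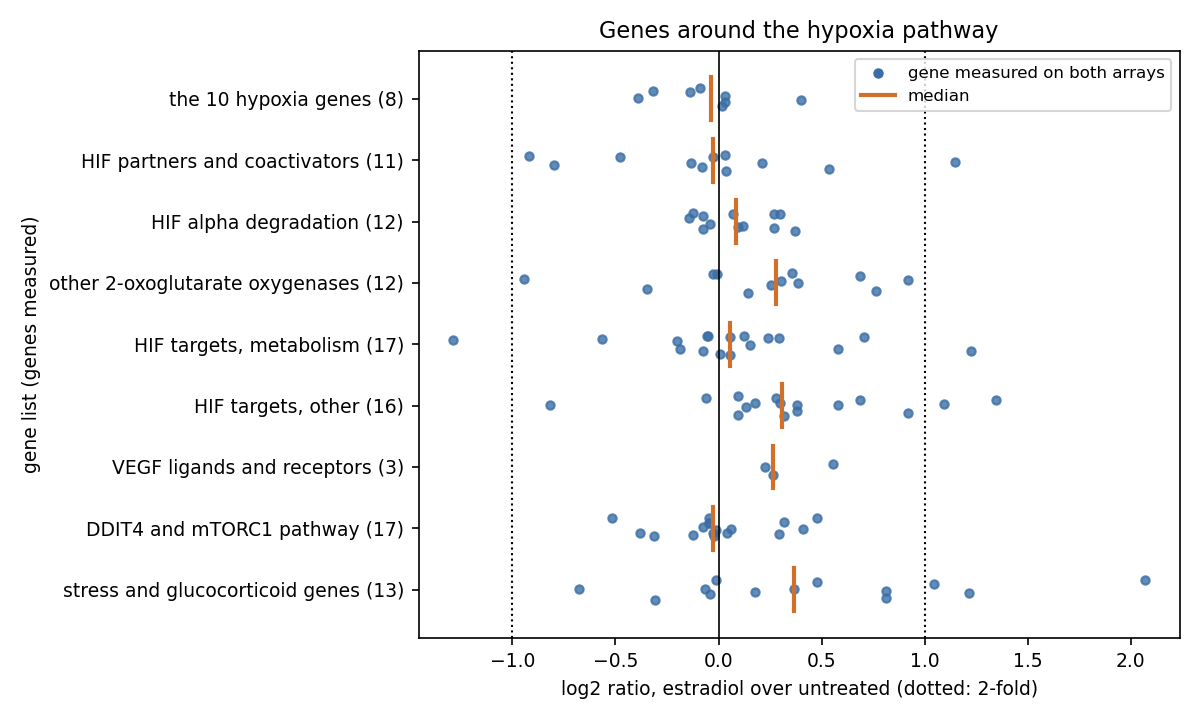
Log2 ratio of each measured gene (points, brightest probe set) in the 10 hypoxia genes and in 8 lists around them, with the list median as an orange bar and 2-fold dotted; 2 lists share Kdm3a and P4ha1, and 2 share Sesn2. The hypoxia genes lie within -0.39 to 0.40, a narrower span than any list of more than 3 measured genes except the degradation machinery.

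Few of the partners of Vegfa reached the floor on both arrays. Of 9 other VEGF ligand and receptor genes 3 were measured, all above 0 and within their limits: Vegfb at 1267 and 1481 (log2 ratio 0.22), Kdr at 208 and 249 (0.26) and Nrp2 at 229 and 337 (0.55). Flt4 read 91.8 untreated, below the floor, and 141 with estradiol, a bound of at least 1.48-fold higher. The remaining ligand genes, Flt1 and Nrp1 were below the floor on both arrays. Of 9 endothelial markers, a cell type in which Epas1 is typically high, 6 were below it, Cdh5, Pecam1 and Tie1 among them. The other 3 were dim and above 0: Kdr, Eng at 170 and 215 (0.34), and Esam at 98.5 and 157 (0.67), which was beyond its limit of 0.60.

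The genes of the pathway through which REDD1 acts lay on both sides of 0. Of 20 genes of the TSC and mTORC1 pathway 17 were measured, 6 above 0 and 11 below, with a median of -0.03. Of all measured genes 50.1% lay above 0. At 2-fold 0 of the 17 were higher and 0 lower, against 2.04% and 1.1% of all measured genes. Tsc2, part of the complex through which REDD1 restrains mTORC1, read 969 and 1010.4 (0.06), and Mtor read 1105 and 1014 (-0.12), although its other measured probe set was at 0.44. The sestrin genes, stress-induced inhibitors of mTORC1, went both ways. Sesn1 was lower on 3 of 3 measured probe sets (-0.83 to -0.50), its brightest (-0.52) beyond its limit of 0.40. Sesn2 was higher on 2 of 2 (0.39 and 0.48). Deptor read 162 and 215 (0.41) on its only measured probe set, within its limit. Akt1 read 3938 and 3025 (-0.38) on its brightest probe set, with -0.52 and 0.11 on its other measured ones.

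Ddit4 is known to be induced together with a group of stress and glucocorticoid genes, and here 3 of 13 measured members passed 2-fold upward and 0 downward, with a median of 0.36, where 2.04% of all measured genes were higher and 1.1% lower by that much. Ddit3, the CHOP gene, was 4.20-fold higher (log2 ratio 2.07, 0.85 on another probe set), Gadd45a 2.32-fold higher (1.21) and the clock gene Per1 2.07-fold higher (1.05). Atf4, which encodes the factor that acts on Ddit4 and Ddit3 in the integrated stress response, read 2101 and 2706 (0.36), within its limit. Of the 13, 8 lay above 0 and 5 below, where 50.1% of all measured genes lay above 0. Fkbp5, another glucocorticoid gene of the list, was lower on both measured probe sets (-0.31 and -0.44). Nr3c1, listed as the glucocorticoid receptor gene and not as an induced gene, read 2847 and 1783 (-0.68). By brightest probe set, the Ddit4 ratio of -0.09 stood below those of Ddit3, Gadd45a, Per1, Atf5 (0.81), Trib3 (0.81), Sesn2 and Atf4. It was also below that of Txnip (0.17, with 0.82 on another probe set). Near it lay Chac1 (-0.01) and Asns (-0.04), and below it Fkbp5 and Nr3c1. Tsc22d3 was at -0.07 on its brightest probe set but ranged from -0.75 to 0.67 over 4.

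Over all lists around the hypoxia genes, 98 of 143 distinct genes were measured, 7 past 2-fold upward and 1 downward, against 2.04% and 1.1% of all measured genes, with a median of 0.09 against 0.00. Scaling to a common median gives 5 higher and 3 lower instead, with Insig2 and Per1 no longer past 2-fold and Hif3a and Ogfod1 past it.

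The labelled cell type was checked against marker genes. All 9 erythroid markers on the array with a probe set of their own were measured, Klf1, Epor, Tal1 and Rhag among them. Of 8 megakaryocyte markers 4 were measured, of 10 neutrophil and monocyte markers 2, and of 8 lymphoid markers 1, none past 2-fold. The mast cell markers, 5 of 10 measured, held 1 gene past 2-fold upward (Tpsab1) and 2 downward (Cpa3 and Ms4a2), against 2.04% and 1.1% of all measured genes. Their signal summed over all 10, measured or not, was 15911 untreated and 11838 with estradiol. That sum mixes opposite differences, such as Cpa3 at 6616 and 1146 and Tpsab1 at 140 and 3418. Whether these marker differences bear on any ratio above was not tested. In bulk RNA, fewer cells with a transcript and less transcript per cell cannot be told apart.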

How the data were processed

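The authors deposited a linear signal intensity for each of 45101 probe sets on 2 arrays. GCOS is named in the submitters' processing notes, and its version and settings are not given in the sources used here. A trimmed mean (2% off each end) of the deposited intensities is 500.0 on both arrays. Genes were named through the platform annotation: 34945 probe sets had 1 symbol, 932 several and 9160 none, besides 64 controls.

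Intensities were rescaled to 1 trimmed mean over probe sets that are not controls (factors 0.999941 and 1.00006) and their 50th percentile over both arrays, 95.2, served as floor. Below it on 1 array, a ratio is a bound against the floor; below it on both, none was formed. A gene took its brightest probe set. With 1 array a group no test was run, and the number of arrays limits the precision. Alternatives were other scalings, floors and fold thresholds and the median over probe sets. All members were named, and of the other lists genes past 2-fold, the 3 with the largest absolute ratio, and a preset few; further ones named here were chosen after their values were seen. Members and lists were chosen with earlier results of these data known. No likeness between genes was computed, since 2 arrays give 1 ratio a gene. The steps were tested on simulated data, where recovery was required only at folds larger than those of the measured hypoxia genes. The simulated noise was the SD between probe sets of a gene, not between cultures. Python 3.11.15, numpy 2.4.6, pandas 2.3.3, scipy 1.17.1, statsmodels 0.14.6 and matplotlib 3.10.9 were used. Of 229 list entries 207 had a probe set of their own; the others were not analysed here.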

Additional observations from a re-analysis of the deposited data

How the results depend on the processing

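No hypoxia gene passed 2-fold under the 4 other scalings, the other 2 floors or the median over probe sets. None passed 3-fold, which follows from none passing 2-fold. With no floor and 16 added to each signal, 1 probe set was higher (of Hif1a, 1.02 on the log2 scale) and 1 lower (of Epas1), as was 1 gene (Epas1), all from signals below the floor. At 1.5-fold, 1 probe set, of Hif1a, was higher. Hif1a stayed above 0 under the 8 alternatives that recomputed it, from 0.29 (common median, inside its limit) to 0.45. The other 2 floors left it at 0.40 because its signals lie far above them. The deposited signals also gave 0.40, since the scaling factors were close to 1. Hif1an ranged from -0.50 to -0.38 and Arnt from -0.43 (common median, beyond its limit of 0.40) to -0.19. Vegfa (-0.10 to 0.05), Egln1 (-0.08 to 0.03) and Vhl (-0.08 to 0.04) crossed 0. For the surrounding lists, 13 genes were higher and 6 lower at 1.5-fold, 1 and 0 at 3-fold, 3 lower under a common median and with no floor, and 2 lower with a floor at the 30th percentile, against 7 and 1. Hif3a ranged from -1.03 to -0.89. No result reversed past 2-fold. No paired analysis was possible because each group has 1 array.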
